A study of Mus musculus with 12 samples.

Results

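Colony-stimulating factors and the receptors of early blood cell growth factors were followed in mouse spleen, in a list of 10 genes. The list held the ligands Csf1, Csf2, Csf3, Kitl and Flt3l and the receptor chains Csf1r, Csf2ra, Csf2rb, Csf3r and Kit. A gene was measured by the probe set annotated to it alone, and by the brightest where there were several. This gave 9 of the 10 genes, 4 ligands and 5 receptors, among 22180 genes in all. The only probe set that names Flt3l names Rpl13a as well, and Flt3l is therefore not analysed here.

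Spleens of 12 female C57BL/6 mice, 3 per group, were profiled one by one on the Affymetrix Mouse Gene 2.0 ST platform. The groups were LPS challenged ficolin KO, naive ficolin KO, LPS challenged WT and naive WT mice. LPS (lipopolysaccharide, a cell wall component of Gram-negative bacteria) was given intraperitoneally at 10 mg/kg, a lethal dose, and mice were sacrificed after 6 h. Naive mice were untreated and received no injection of vehicle. Ficolin KO mice lack both ficolin-A and ficolin-B in all cells, and both genotypes were bred as separate homozygous lines from heterozygous crosses. Mice were 10 weeks old per the labels, while the study's methods give a slightly wider range. Fcna, the deleted ficolin-A gene, had log2 values between 3.98 and 4.85 in all 6 ficolin KO mice, against 7.92 to 9.38 in all 6 WT mice, so every array fitted its labelled genotype. The median of all probe sets on an array lay between 4.17 and 4.27. Values are log2 intensities, so a difference of 1 is a fold-change of 2, and levels of different genes are not compared because each probe set has its own brightness.

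Colony-stimulating factors are secreted proteins that keep blood cell precursors alive and direct them into the myeloid lineages. Csf1 (M-CSF) acts on monocytes and macrophages, Csf2 (GM-CSF) on granulocytes, macrophages and dendritic cells, and Csf3 (G-CSF) on neutrophils, whose production and release from bone marrow it drives. Kitl, or stem cell factor, is made by stromal and endothelial cells and acts through Kit on stem cells, progenitors and mast cells. Csf1r and Kit are receptor tyrosine kinases, whereas the receptors of Csf2 and Csf3 lack a kinase of their own and signal through JAK kinases and STAT factors. The mouse spleen contains resident macrophages that depend on Csf1r and takes up blood formation when demand is high.

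The promoters of the ligands that differed with LPS at an adjusted p under 0.05 and have a window in the RefSeq promoter table are given here, since their sequence is the part of these genes nearest to where transcription starts. Each window runs 5′ to 3′ on the gene's strand of GRCm38.p6, from 250 bases before to 50 bases after the annotated start, and capitals mark motif matches on either strand. The windows lie at chr3:107760420-107760719 on the minus strand for Csf1, chr11:54249850-54250149 on the minus strand for Csf2 and chr10:100015571-100015870 on the plus strand for Kitl. Csf3, Csf1r and Csf2rb are not in the table.
Csf1: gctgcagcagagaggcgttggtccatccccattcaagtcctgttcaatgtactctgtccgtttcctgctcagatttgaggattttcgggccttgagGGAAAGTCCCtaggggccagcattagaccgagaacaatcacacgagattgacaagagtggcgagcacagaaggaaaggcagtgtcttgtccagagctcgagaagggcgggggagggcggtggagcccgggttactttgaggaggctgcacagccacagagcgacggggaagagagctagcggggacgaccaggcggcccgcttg
Csf2: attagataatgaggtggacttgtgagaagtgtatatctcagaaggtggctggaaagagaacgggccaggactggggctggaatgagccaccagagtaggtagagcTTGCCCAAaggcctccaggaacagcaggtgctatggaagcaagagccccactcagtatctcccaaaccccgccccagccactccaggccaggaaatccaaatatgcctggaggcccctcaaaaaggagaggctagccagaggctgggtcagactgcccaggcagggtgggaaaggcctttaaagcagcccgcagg
Kitl: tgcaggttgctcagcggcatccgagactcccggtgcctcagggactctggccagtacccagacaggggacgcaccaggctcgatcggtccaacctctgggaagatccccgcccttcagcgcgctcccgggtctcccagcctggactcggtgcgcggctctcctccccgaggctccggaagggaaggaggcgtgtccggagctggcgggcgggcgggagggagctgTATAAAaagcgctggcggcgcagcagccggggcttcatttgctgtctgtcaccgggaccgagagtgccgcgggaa

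The motifs searched on both strands were the PU.1 core GAGGAA, the C/EBP motif TTNNGCAA, the AP-1 motif TGANTCA, the TATA box TATAAA and the NF-kB motif of 10 letters. Over 32851 promoter windows of 300 bases, 28.3% held the PU.1 core, 10.8% the C/EBP motif, 7.81% the AP-1 motif, 13.6% the TATA box and 4.51% the NF-kB motif. Positions are counted from the start site, with bases before it negative. In the Csf1 window the capitals are an NF-kB match from -154 to -145, read on the opposite strand. In the Csf2 window they are a C/EBP match from -145 to -138, also on the opposite strand. In the Kitl window they are a TATA box from -25 to -20. Among the receptors, the PU.1 core occurred in the windows of Csf2ra (-14 to -9 and -8 to -3), Csf3r (-86 to -81) and Kit (-223 to -218), none of which changed with LPS by the criteria used. The matches are letters in a window, and binding was not measured.

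The first comparison asked which of these genes differed between LPS challenged and naive mice in each genotype. Csf3 was the most strongly raised of the 9 genes in both genotypes, and Csf1r fell in both. Kitl was lower in both too, by less than 2-fold. Csf2 rose in ficolin KO mice and had a similar but slightly smaller difference in WT mice. A gene was called at a fold-change over 2 with an adjusted p under 0.05, from limma with Benjamini-Hochberg adjustment over all 22180 genes. By this rule 2 members rose and 1 fell in ficolin KO mice, while 4.22% of all genes rose and 4.41% fell. In WT mice 1 member rose and 1 fell, while 4.05% of all genes rose and 4.94% fell. The median log2 fold-change of the 9 members was 0.32 in ficolin KO and 0.38 in WT mice, against -0.01 and 0.01 over all genes.

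At an adjusted p under 0.05 alone, with no fold criterion, 4 members were higher and 2 lower in ficolin KO mice, where 12.9% of all genes were higher and 14.9% lower. The counts were also 4 higher and 2 lower in WT mice, where 13.4% of all genes were higher and 16.7% lower. The same 6 genes made up these counts in both genotypes, namely Csf1, Csf2, Csf3, Csf2rb, Kitl and Csf1r. In WT mice Csf1, Csf2rb and Kitl missed the threshold with the methods' t-test, which left 2 higher and 1 lower, and Csf1 and Csf2rb also missed it without LPS challenged WT replicate 3 or without naive WT replicate 1. Csf2ra, Csf3r and Kit passed neither rule. All p-values rest on the spread between single mice within groups. In the main limma fit this spread is pooled over the 4 groups and moderated by that of all genes.

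**Figure D1:**
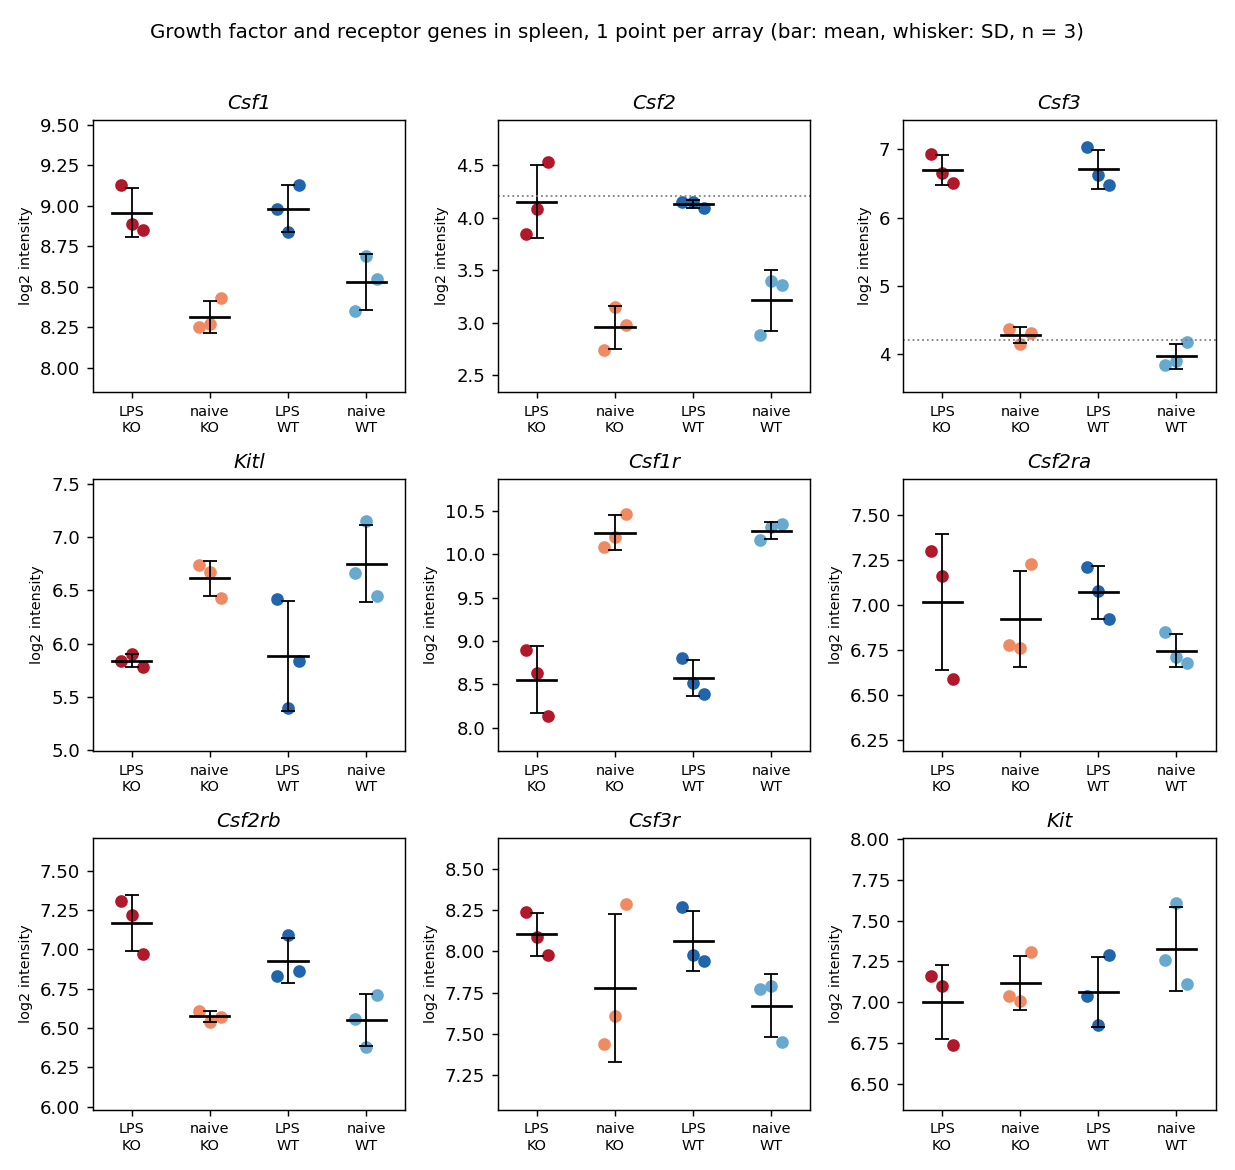
Log2 intensity of the 9 measured genes on each array, with 1 point per mouse, a bar at the group mean and whiskers of 1 SD (n = 3). Groups run from LPS challenged ficolin KO on the left to naive WT on the right, each panel has its own scale, and the dotted line in the Csf2 and Csf3 panels is the mean of the array medians. LPS challenged and naive mice separate fully for Csf1, Csf2, Csf3, Kitl, Csf1r and Csf2rb in both genotypes. The share of all genes that separate in this way was not counted.

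Among the ligands, Csf3 had log2 values of 6.93, 6.66 and 6.50 in LPS challenged ficolin KO mice, against 4.37, 4.14 and 4.31 in naive ficolin KO mice. In WT mice it had 7.03, 6.62 and 6.48 after LPS challenge, against 3.84, 3.89 and 4.18 in naive mice. Every LPS challenged mouse lay more than a log2 unit above every naive mouse. Csf3 thus rose 5.36-fold in ficolin KO mice (log2 fold-change 2.42, SE 0.16, limma adjusted p = 2.37e-08). It rose 6.68-fold in WT mice (log2 fold-change 2.74, SE 0.16, limma adjusted p = 6.76e-09). On 4 of the 6 naive arrays, including all 3 of naive WT mice, Csf3 lay below the array median, and the table used here gives no detection calls. A fold-change from such a low naive level can understate the difference in transcript.

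Csf2 was dim, below the array median on 11 of the 12 arrays. Its log2 values were 3.85, 4.08 and 4.53 in LPS challenged ficolin KO mice, against 2.74, 3.15 and 2.98 in naive ficolin KO mice. In WT mice they were 4.15, 4.15 and 4.09 after LPS challenge, against 2.88, 3.40 and 3.36 in naive mice. The groups did not overlap in either genotype, and the only array with Csf2 above its median was that of LPS challenged ficolin KO replicate 3. Csf2 rose 2.29-fold in ficolin KO mice (log2 fold-change 1.20, SE 0.18, limma adjusted p = 8.73e-05). In WT mice the fold-change of 1.89 missed the fold criterion (log2 fold-change 0.92, SE 0.18, limma adjusted p = 8.86e-04). The responses of the genotypes differed by 0.28 with a 95% interval of -0.26 to 0.82, so passing the criterion in one genotype only does not show a difference.

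A second and dimmer probe set of Csf2 did not show the same difference. It had log2 values of 2.90, 3.02 and 3.13 in LPS challenged ficolin KO mice, against 3.24, 3.15 and 3.22 in naive ficolin KO mice, a difference of -0.19 (limma adjusted p = 0.348 over all probe sets). In WT mice it had 3.51, 3.45 and 3.2 after LPS challenge, against 3.15, 2.87 and 3.01 in naive mice, a difference of 0.38 (limma adjusted p = 0.0430 over all probe sets). With both probe sets averaged, the log2 fold-change of Csf2 in ficolin KO mice was 0.51 and the call was lost.

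Csf1 had log2 values of 9.13, 8.89 and 8.85 in LPS challenged ficolin KO mice, against 8.25, 8.27 and 8.43 in naive ficolin KO mice. In WT mice the values were 8.98, 8.84 and 9.13 after LPS challenge, against 8.35, 8.69 and 8.55 in naive mice. All LPS challenged mice lay above all naive mice of their genotype. The difference stayed under the fold criterion, at 1.56-fold in ficolin KO mice (log2 fold-change 0.64, SE 0.13, limma adjusted p = 0.00125) and 1.37-fold in WT mice (log2 fold-change 0.45, SE 0.13, limma adjusted p = 0.0138).

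Kitl, the ligand of Kit, ran the other way. Its log2 values were 5.84, 5.90 and 5.78 in LPS challenged ficolin KO mice, against 6.74, 6.67 and 6.43 in naive ficolin KO mice. In WT mice they were 6.42, 5.39 and 5.84 after LPS challenge, against 6.66, 7.15 and 6.45 in naive mice. Groups did not overlap, but LPS challenged WT replicate 1 lay just under the lowest naive WT mouse. Kitl was 1.71-fold lower in ficolin KO mice (log2 fold-change -0.77, SE 0.22, limma adjusted p = 0.0141) and 1.83-fold lower in WT mice (log2 fold-change -0.87, SE 0.22, limma adjusted p = 0.00633), both short of the fold criterion. Without LPS challenged WT replicate 1 the log2 fold-change in WT mice was -1.14, and without naive WT replicate 3 it was -1.02, and Kitl was then called.

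Among the receptors, Csf1r, through which Csf1 and Il34 act on monocytes and macrophages, fell. It had log2 values of 8.90, 8.63 and 8.13 in LPS challenged ficolin KO mice, against 10.08, 10.20 and 10.47 in naive ficolin KO mice. In WT mice it had 8.80, 8.52 and 8.39 after LPS challenge, against 10.16, 10.31 and 10.35 in naive mice. The lowest naive mouse lay more than a log2 unit above the highest LPS challenged mouse. Csf1r was 3.24-fold lower in ficolin KO mice (log2 fold-change -1.70, SE 0.18, limma adjusted p = 2.82e-06). It was 3.26-fold lower in WT mice (log2 fold-change -1.70, SE 0.18, limma adjusted p = 2.63e-06). Thus Csf1 and its receptor differed in opposite directions. In whole spleen, fewer cells of a type and less RNA per cell cannot be told apart.

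Markers of red pulp macrophages, the resident iron-recycling macrophages of the spleen, were low in the same mice. Of 10 markers, 7 fell in ficolin KO and 6 in WT mice, and none rose in either. Of all genes, 4.22% rose and 4.41% fell in ficolin KO mice, and 4.05% rose and 4.94% fell in WT mice. The counts of the other marker lists stand beside the same shares. The mean log2 intensity of the list was 7.55 to 7.83 in LPS challenged ficolin KO mice and 9.02 to 9.29 in naive ficolin KO mice. It was 7.61 to 7.81 in LPS challenged WT mice and 9.08 to 9.37 in naive WT mice. Slc40a1, the iron exporter ferroportin, had a log2 fold-change of -5.25 in ficolin KO and -5.31 in WT mice, while Spic, a transcription factor of these macrophages, was higher at 0.41 and 0.55, under the fold criterion. Of 9 dendritic cell markers 3 fell in each genotype. Xcr1 and Itgax, the gene of CD11c, fell in both, Siglech in ficolin KO mice and Flt3 in WT mice. Batf3 of this list was higher, at 0.48 in ficolin KO and 0.76 in WT mice, under the fold criterion. Of 7 monocyte markers Ccr2 fell and Vcan rose in both genotypes. Lymphocyte markers were lower as well. Of 7 B cell markers 6 fell in each genotype, with list means of 8.31 to 8.36 in LPS challenged and 9.90 to 10.10 in naive ficolin KO mice, and of 8.25 to 8.37 in LPS challenged and 9.87 to 10.11 in naive WT mice. Pax5 of the B cell list had log2 fold-changes of 0.04 in ficolin KO and 0.05 in WT mice. Of 6 T cell markers 5 fell in ficolin KO and 3 in WT mice, and of 6 NK cell markers 3 fell in each. Gzma of the NK cell list had 0.05 in ficolin KO mice and was higher at 0.49 in WT mice, under the fold criterion. The lower marker levels were thus not particular to macrophages, and the part of any of these cells in the Csf1r result was not tested.

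Csf2rb encodes the common beta chain, the signalling chain shared by the receptors of GM-CSF and the interleukins Il3 and Il5. It had log2 values of 7.31, 7.22 and 6.97 in LPS challenged ficolin KO mice, against 6.61, 6.54 and 6.57 in naive ficolin KO mice. In WT mice the values were 6.83, 7.09 and 6.86 after LPS challenge, against 6.56, 6.38 and 6.71 in naive mice. LPS challenged mice were higher without overlap in both genotypes, by 1.51-fold in ficolin KO mice (log2 fold-change 0.59, SE 0.13, limma adjusted p = 0.00212). In WT mice the fold-change was 1.30 (log2 fold-change 0.38, SE 0.13, limma adjusted p = 0.0358), and with the replicate number as a block its adjusted p was 0.0593. The close paralog Csf2rb2, the beta chain that serves Il3 alone in the mouse, had mean log2 values of 7.68 ± 0.27 in LPS challenged and 7.10 ± 0.21 in naive ficolin KO mice, and of 7.65 ± 0.08 in LPS challenged and 6.93 ± 0.15 in naive WT mice (SD, n = 3 each). Its log2 fold-changes were 0.58 in ficolin KO mice (limma adjusted p = 0.00793) and 0.72 in WT mice (limma adjusted p = 0.00162). Transcripts of the paralogs may share probes, so the division between them is uncertain.

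Csf2ra, the alpha chain that binds GM-CSF, had log2 values of 7.30, 7.16 and 6.59 in LPS challenged ficolin KO mice, against 6.78, 6.76 and 7.23 in naive ficolin KO mice. In WT mice it had 7.21, 7.08 and 6.92 after LPS challenge, against 6.85, 6.71 and 6.68 in naive mice. The groups overlapped in ficolin KO mice and did not in WT mice. Log2 fold-changes were 0.09 in ficolin KO mice (95% interval -0.28 to 0.47, limma adjusted p = 0.770) and 0.32 in WT mice (95% interval -0.05 to 0.70, limma adjusted p = 0.197).

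Csf3r, the G-CSF receptor of neutrophils and their precursors, had log2 values of 8.24, 8.09 and 7.98 in LPS challenged ficolin KO mice, against 7.44, 7.61 and 8.29 in naive ficolin KO mice. In WT mice it had 8.27, 7.98 and 7.94 after LPS challenge, against 7.77, 7.79 and 7.45 in naive mice. The only naive mouse to reach the LPS challenged values was naive ficolin KO replicate 3, whose 8.29 was the highest of all 12 mice. The log2 fold-change was 0.32 in ficolin KO mice (95% interval -0.08 to 0.72, limma adjusted p = 0.244) and 0.39 in WT mice (95% interval -0.01 to 0.79, limma adjusted p = 0.137). Without naive ficolin KO replicate 3 it was 0.58 in ficolin KO mice with an adjusted p of 0.0114. That mouse had the highest mean of 10 neutrophil markers among the 12, at 7.46, against 6.14 and 6.70 in the other naive ficolin KO mice. The neutrophil list as a whole overlapped between LPS challenged and naive mice, with Lcn2 its only gene to rise in both genotypes and Cxcr2 called lower in ficolin KO mice (log2 fold-change -1.10, against -0.48 in WT mice). The part of neutrophils in the Csf3r values was not tested.

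Kit, the receptor of stem cell factor, had log2 values of 7.16, 7.10 and 6.74 in LPS challenged ficolin KO mice, against 7.04, 7.01 and 7.31 in naive ficolin KO mice. In WT mice the values were 7.04, 6.86 and 7.29 after LPS challenge, against 7.26, 7.61 and 7.11 in naive mice. Groups overlapped in both genotypes, with log2 fold-changes of -0.12 (95% interval -0.47 to 0.23, limma adjusted p = 0.667) in ficolin KO and -0.26 (95% interval -0.61 to 0.08, limma adjusted p = 0.260) in WT mice. So the ligand Kitl was lower after LPS challenge, while no difference in its receptor was detectable with 3 mice per group.

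**Figure D2:**
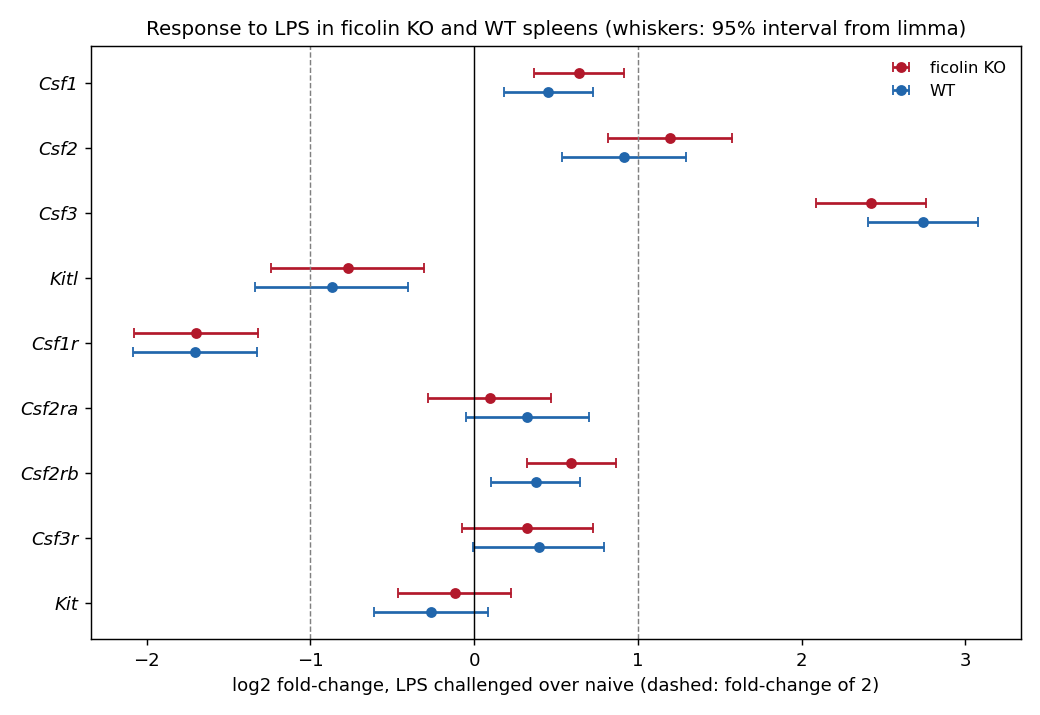
Log2 fold-change of LPS challenged over naive mice for the 9 genes, ficolin KO above WT, with the 95% interval from limma. Dashed lines mark a fold-change of 2; Csf3 (2.42 and 2.74) and Csf1r (-1.70 in both) lie beyond them in both genotypes, and Csf2 in ficolin KO mice only (1.20, against 0.92 in WT mice).

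In ficolin KO mice the receptors tended to be high or low in the same animals. All 5 receptors were highest in LPS challenged ficolin KO replicate 1 and lowest in replicate 3 of that group, and 4 of 5 were highest in naive ficolin KO replicate 3. The order in LPS challenged ficolin KO mice was not particular to receptors. Csf1, Csf3 and the list means of receptor signalling, transcription factors and stroma had it too. Csf2 and the B cell mean ran in reverse, and the remaining lists of related genes and markers did not keep this order. In WT mice no replicate was highest for more than 3 of the 5 receptors. Every WT replicate, LPS challenged or naive, was highest of its group for at least 1 receptor and lowest for at least 1. Exocrine pancreas markers differed among the same LPS challenged ficolin KO mice, with list means of 4.10, 6.63 and 8.33 in replicates 1, 2 and 3, against 9.05 to 10.57 in naive ficolin KO mice, 8.81 to 10.88 in LPS challenged WT mice and 8.30 to 10.07 in naive WT mice. Their part in the receptor values was not tested. Without LPS challenged ficolin KO replicate 1 or replicate 3, Csf3, Csf2 and Csf1r were still the members called in ficolin KO mice.

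The second comparison asked whether ficolin deficiency altered the expression of these genes. After LPS challenge, none of the 9 members passed a fold-change over 1.5 with an unadjusted p under 0.05, a rule that 0.46% of all genes passed. Log2 differences of ficolin KO over WT mice ran from -0.06 for Kit to 0.24 for Csf2rb, and 8 of 9 were within 0.1 of 0. Csf2rb had the lowest p, with mean log2 values of 7.17 ± 0.18 in LPS challenged ficolin KO mice and 6.93 ± 0.14 in LPS challenged WT mice (SD, n = 3 each). Its adjusted p from limma was 0.930. Csf3 averaged 6.70 ± 0.22 in LPS challenged ficolin KO mice and 6.71 ± 0.29 in LPS challenged WT mice (SD, n = 3 each). Csf1r averaged 8.55 ± 0.39 in LPS challenged ficolin KO mice and 8.57 ± 0.21 in LPS challenged WT mice (SD, n = 3 each). By the main probe set of each gene, the 95% intervals of the 9 differences reached from -0.51 for Kitl to 0.51 for Csf2rb. A fold-change of 1.5 lay outside all of them. This bound does not cover the dimmer probe set of Csf2. That probe set had a difference of -0.37 (SE 0.12, limma unadjusted p = 0.00988, adjusted p = 0.914 over all probe sets).

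In naive mice none of the 9 members passed the same rule, which 0.185% of all genes passed. Csf3 had the lowest p, with 4.27 ± 0.12 in naive ficolin KO mice and 3.97 ± 0.18 in naive WT mice (SD, n = 3 each). This log2 difference of 0.30, at the low end of intensity, had an adjusted p of 0.999 from limma. Csf2 had the most negative difference, -0.26, and was dimmer still. The 95% intervals reached from -0.64 for Csf2 to 0.64 for Csf3, and a fold-change of 1.5 was therefore within the interval for some of these genes. By limma and by the methods' t-test, with the main probe set of each gene, 0 of 9 members had an unadjusted p under 0.05 in either state.

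**Figure D3:**
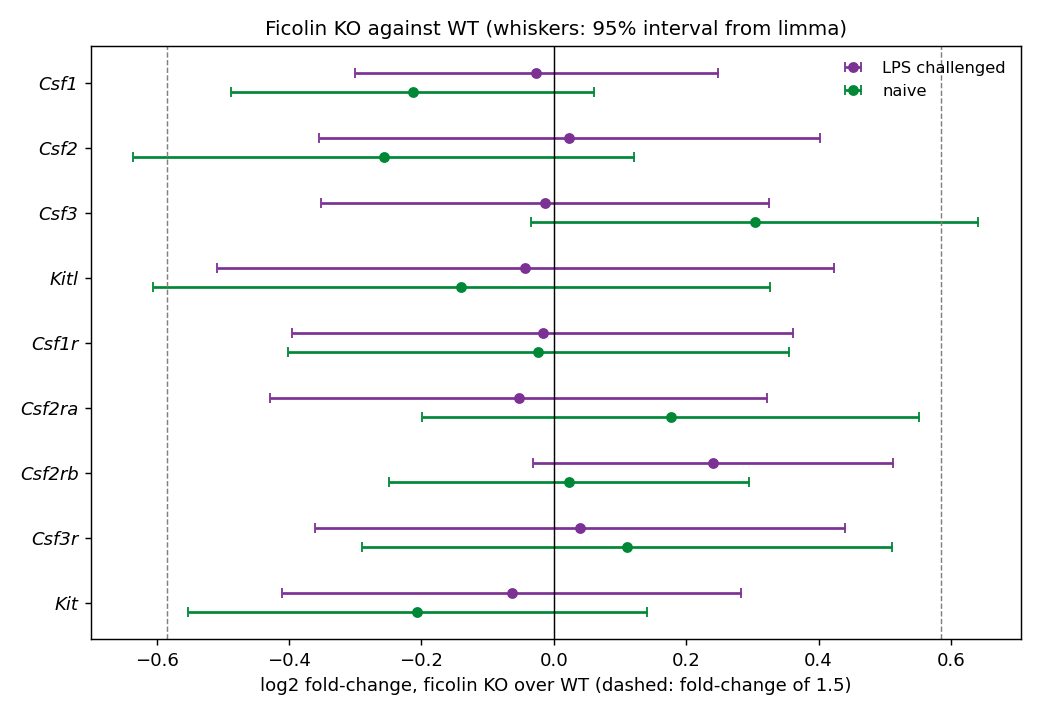
Log2 fold-change of ficolin KO over WT mice for the 9 genes by their main probe sets, LPS challenged above naive, with the 95% interval from limma. Dashed lines mark a fold-change of 1.5, every interval includes 0, and the intervals of LPS challenged mice stay inside the dashed lines.

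The third comparison set the LPS response of ficolin KO mice against that of WT mice. No member differed at an adjusted p under 0.05, where 0.00902% of all genes did. The lowest unadjusted p from limma by a main probe set was 0.178. The dimmer probe set of Csf2 had a difference between the responses of -0.56 and a difference of ficolin KO over WT mice after LPS challenge of -0.37, both with an unadjusted p under 0.05 and with limma adjusted p of 0.999 and 0.914 over all probe sets. The main probe set of Csf2 had 0.28 and 0.02 for the same quantities, so the probe sets differed in sign. Csf3 had the lowest p, its response being smaller by a log2 difference of -0.32 in ficolin KO mice (95% interval -0.79 to 0.16, limma adjusted p = 0.998). For Csf1r the responses differed by 0.01 (95% interval -0.53 to 0.54). With 3 mice per group these intervals are wide, and an adjusted p under 0.05 asks for more than an interval that leaves out 0. The responses of Fcna, the deleted gene, differed by 0.93 (95% interval 0.34 to 1.52), with a limma adjusted p of 0.998. Between any pair of groups, an exact permutation test of 3 against 3 mice cannot go below a two-sided p of 0.1.

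Other ligands and receptors of blood cell growth factors were counted by the same rule. Of 13 measured, none rose and 1 fell in ficolin KO mice, where 4.22% of all genes rose and 4.41% fell, and none rose and 2 fell in WT mice, where 4.05% rose and 4.94% fell, counts too small to set apart from these shares, with median log2 fold-changes of 0.05 and -0.02. Il5ra, the alpha chain of the interleukin-5 receptor of eosinophils and some B cells, had mean log2 values of 3.73 ± 0.27 in LPS challenged and 5.49 ± 0.39 in naive ficolin KO mice, and of 3.80 ± 0.41 in LPS challenged and 5.36 ± 0.28 in naive WT mice (SD, n = 3 each). Its log2 fold-changes were -1.76 (limma adjusted p = 2.49e-05) in ficolin KO and -1.56 (limma adjusted p = 7.34e-05) in WT mice. Il5ra lay below the array median on 5 of the 12 arrays. Flt3, the receptor of Flt3l on progenitors and dendritic cells, fell by 1.12 on the log2 scale in WT mice and had a log2 fold-change of -0.63 in ficolin KO mice, under the fold criterion. Il34, the other ligand of Csf1r, had log2 fold-changes of 0.14 in ficolin KO and -0.13 in WT mice, and Il3ra, which shares Csf2rb, was higher at 0.50 and 0.59, under the fold criterion. Il3, Il5, Epo, Il7 and Tslp lay below the array median on all 12 arrays.

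Genes that act downstream of the receptors formed the second list. Of 19 measured, 4 rose and 2 fell in ficolin KO mice and 5 rose and 2 fell in WT mice, beside the same shares of all genes (4.22% and 4.41% in ficolin KO, 4.05% and 4.94% in WT mice), with median log2 fold-changes of 0.25 and 0.16. Socs3, the feedback inhibitor that binds the G-CSF receptor, had log2 fold-changes of 3.17 in ficolin KO mice (limma adjusted p = 4.57e-09) and 3.59 in WT mice (limma adjusted p = 1.44e-09). Pim1, a survival kinase induced by STAT factors, rose by 1.99 in ficolin KO and 2.04 in WT mice, and Stat3, the main STAT of the G-CSF receptor, by 1.66 and 1.39. Stat5a rose by 1.05 and 1.10, whereas Stat5b had log2 fold-changes of 0.25 and 0.06 and was not called. Tyrobp, an adaptor of myeloid receptors, had log2 fold-changes of -1.91 in ficolin KO and -1.64 in WT mice, and Inpp5d, the inositol phosphatase SHIP, of -1.02 and -1.43. These genes also act downstream of other cytokines, and which receptor they follow here was not tested.

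Transcription factors of myeloid and progenitor cells were the third list of related genes. Of 16 measured, 4 rose and 2 fell in ficolin KO mice and 3 rose and 1 fell in WT mice, again beside 4.22% and 4.41% of all genes in ficolin KO and 4.05% and 4.94% in WT mice, with median log2 fold-changes of 0.10 and 0.02. Cebpb, a factor of granulocyte production under stress, had log2 fold-changes of 2.03 in ficolin KO and 2.09 in WT mice. Cebpd rose by 1.22 and 1.29 and Irf8, a factor of monocytes and dendritic cells, by 1.26 in both. Maf, a macrophage factor, had log2 fold-changes of -1.53 in ficolin KO and -1.59 in WT mice. Spi1, the gene of PU.1, had log2 fold-changes of 0.12 and 0.13 and was not called. Between genotypes, none of the 13, 19 and 16 genes of the lists was called after LPS challenge or in naive mice.

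**Figure D4:**
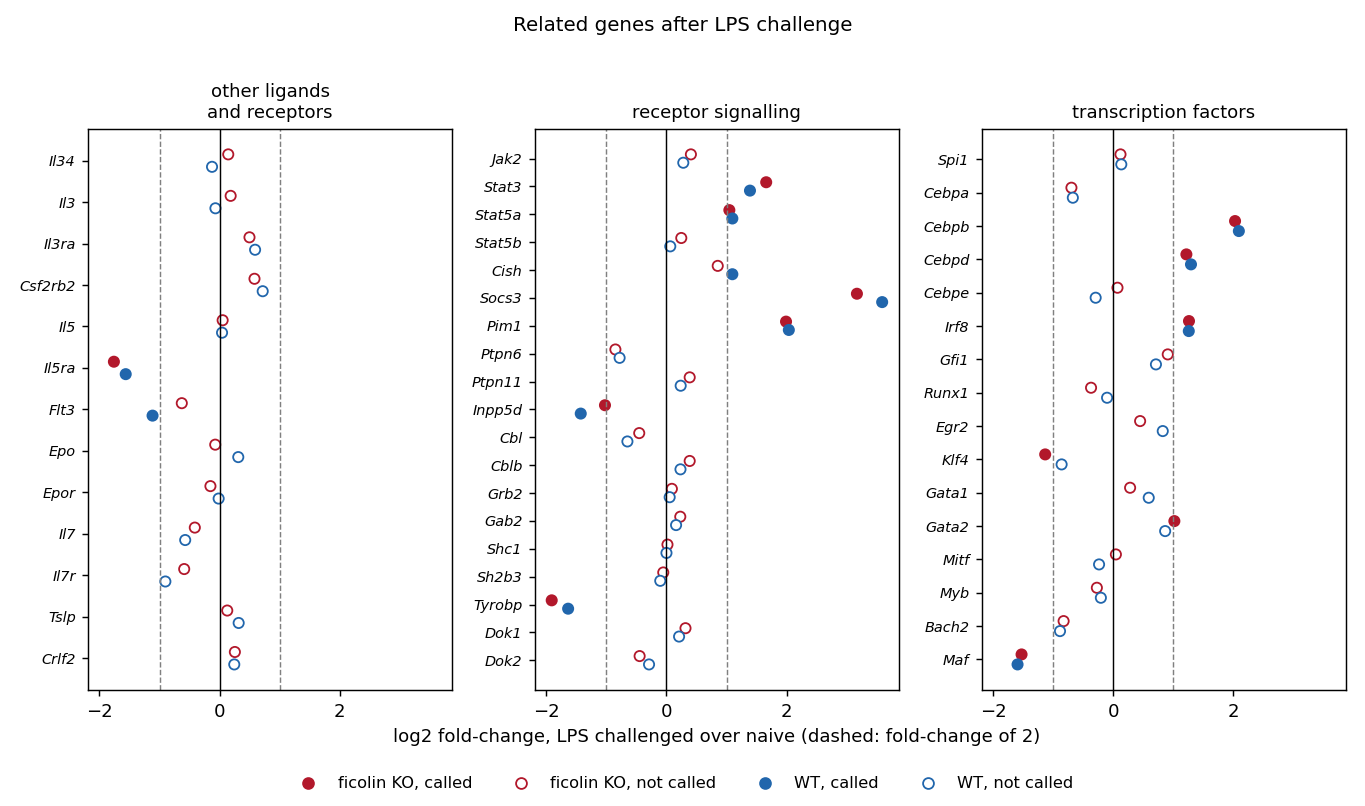
Log2 fold-change of LPS challenged over naive mice for the measured genes of the lists of related genes, with ficolin KO drawn above WT. Filled points passed a fold-change over 2 with an adjusted p under 0.05, open points did not; Socs3 lies farthest to the right (3.17 and 3.59) and Tyrobp (-1.91) farthest to the left in ficolin KO mice.

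Markers of the cells that make or receive Kitl were examined beside it. Of 10 markers of stroma and endothelium, 1 rose and 3 fell in ficolin KO mice and none rose and 2 fell in WT mice. Of all genes, 4.22% rose and 4.41% fell in ficolin KO mice, and 4.05% rose and 4.94% fell in WT mice. The mean of the list was 7.32 to 7.78 in LPS challenged ficolin KO mice and 8.22 to 8.30 in naive ficolin KO mice, and 7.47 to 7.59 in LPS challenged WT mice and 8.24 to 8.41 in naive WT mice. Stab2, a scavenger receptor of sinusoidal endothelium, had log2 fold-changes of -2.01 in ficolin KO and -2.31 in WT mice. Tlx1, a stromal transcription factor of the spleen, had -1.46 and -1.82. Cdh5 of this list went the other way, at 1.15 and called in ficolin KO mice, and 0.89 and not called in WT mice. Pdgfrb had -0.04 in ficolin KO and -0.26 in WT mice and was not called. Of the 10 early blood progenitor markers, Procr and Slamf1 rose and Meis1 fell in both genotypes. Prtn3 fell in WT mice only, at -1.30, against -0.84 in ficolin KO mice. The median log2 fold-change of this list was -0.26 in ficolin KO and -0.395 in WT mice. Among 10 markers of mast cells and basophils, Hdc rose in both genotypes and Gata2 in ficolin KO mice only. The median of that list was -0.07 in ficolin KO and -0.10 in WT mice. Cpa3 of that list was lower, at -0.84 and -0.55, under the fold criterion. The mean of the early blood progenitor list overlapped between LPS challenged and naive mice of both genotypes, and 6 to 8 of the 10 mast cell and basophil markers lay below the array median throughout a group. The part of these cells in the Kitl and Kit values was not tested.

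**Figure D5:**
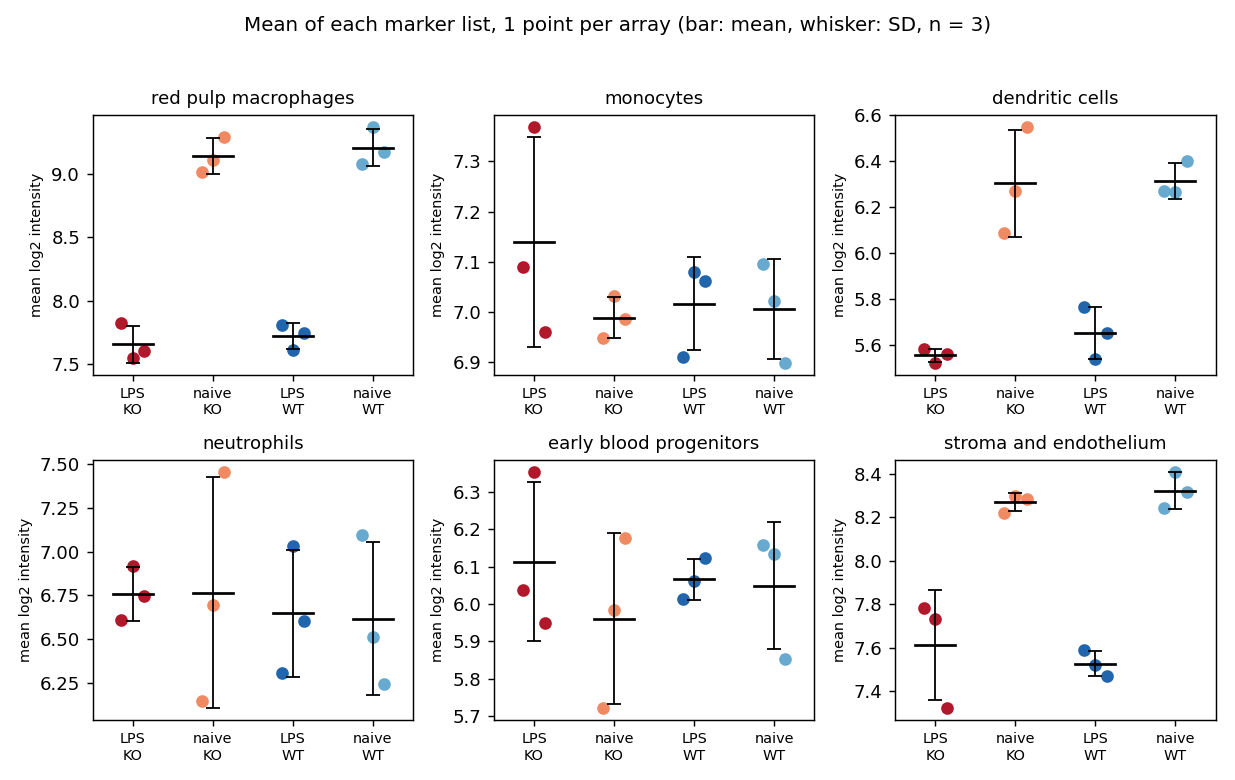
Mean log2 intensity of the markers of 6 cell types on each array, with 1 point per mouse, a bar at the group mean and whiskers of 1 SD (n = 3). Red pulp macrophage, dendritic cell and stroma lists are lower in LPS challenged than in naive mice without overlap, while monocyte, neutrophil and early blood progenitor lists overlap.

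The genes whose profile over the 12 arrays was nearest to the members called in both genotypes were found by the root mean square difference of log2 values, each gene's values taken relative to its own mean in naive WT mice. Nearest to Csf3 were Mlkl, the executioner of necroptosis, at 0.19 with log2 fold-changes of 2.53 in ficolin KO and 2.61 in WT mice, and the transcription factor Myc at 0.20, with 2.63 and 2.57. Nearest to Csf1r were Treml4, a receptor of myeloid cells, at 0.08 with log2 fold-changes of -1.72 in both genotypes, and Zfp385a at 0.16, with -1.59 in ficolin KO and -1.79 in WT mice. These are descriptions over 12 arrays that share 4 groups.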

How the data were processed

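Quantile normalization and RMA summarisation of the 12 arrays were done by the authors in Qlucore Omics Explorer. The table they deposited gives log2 intensities, rounded to 2 decimals, of 41345 probe sets. Quantile normalization gives all arrays nearly the same distribution, so a shift shared by most genes cannot be seen. The genome build is not given in the sources used here. Probe sets with several symbols (1820) or none (16004) were left out, and the brightest probe set was kept for each of 1082 genes with several, leaving 22180 genes, dim ones included.

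The fit used limma 3.58.1 in R 4.3.3 (lmFit, contrasts, eBayes) on all 12 arrays, with 8 residual degrees of freedom, and was tested on simulated data. The median standard error of a log2 fold-change was 0.14, and the number of arrays limits the precision. Named were all members, up to 4 genes per list called in both genotypes, the paralog Csf2rb2, Fcna and the nearest profiles. Other names, such as Spic, Siglech, Batf3, Pax5, Gzma, Flt3, Il34, Il3ra, Stat5b, Spi1, Cdh5, Pdgfrb, Prtn3, Gata2 and Cpa3, were picked after their values were seen. Members and lists were chosen with earlier results of these data known. The main fit did not pair the samples by replicate number. The alternatives are given in the closing section. Promoter sequences are from RefSeq (GRCm38.p6), where 7 members had a window.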

Additional observations from a re-analysis of the deposited data

Results flagged for a closer look

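The dimmer probe set of Csf2, which the comparisons of the report did not rest on, was higher in LPS challenged than in naive WT mice by a log2 difference of 0.38, a signal in values outside the main measurement. In ficolin KO mice the same probe set had a difference of -0.19. Groups of 3 mice are too small for a test of single outlying arrays.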

How the results depend on the processing

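Over 22 alternative settings, the 45 results of single members gave 976 values, of which 921 kept their direction and their side of the criteria, 1 lost its call, 4 gained one and 50 changed sign. The sign changes fell on 18 uncalled results with a reported size of at most 0.28, and none was called after the change. The lost call was Csf2 in ficolin KO mice after averaging a gene's probe sets (log2 fold-change 0.51), and Csf2 was not tested with dim genes left out. The gained calls were in WT mice, for Csf2 with array weights (just over 1) and without naive WT replicate 2 (1.01), and for Kitl without LPS challenged WT replicate 1 (-1.14) and without naive WT replicate 3 (-1.02). The number of members called with LPS was 2 to 3 in each genotype, and 3 in ficolin KO mice and 2 to 3 in WT mice when single replicates were left out. It was 0 between genotypes and between responses in every setting run. The difference between the responses could not be fitted with each pair of groups alone.

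With an adjusted p under 0.05 alone, Csf1, Csf2rb and Kitl were lost in WT mice with an ordinary t-test on the compared groups alone. Csf1 and Csf2rb were lost there without LPS challenged WT replicate 3 or naive WT replicate 1. Csf2rb was also lost there without LPS challenged WT replicate 2 or naive WT replicate 2. It was lost too with each pair of groups fitted alone and with all probe sets tested. In ficolin KO mice Kitl was lost without naive ficolin KO replicate 1, and Csf3r was gained in both genotypes without naive ficolin KO replicate 3. With a replicate block the members called were 3 in ficolin KO and 2 in WT mice, as without it, and Csf2rb in WT mice had an adjusted p of 0.0593. Same-numbered mice correlated between -0.22 and 0.25 in their deviations from the group means. The highest were 0.16 and 0.25, for replicates 1 and 3 of ficolin KO against WT mice after LPS challenge. Whether the numbers pair the mice cannot be told from 3 mice per group. Differences of ficolin KO over WT mice after LPS challenge changed sign with array weights for Csf2 (-0.0032), Csf3 (0.049), Csf1r (0.050) and Csf2ra (0.0014), with array medians subtracted for Csf3 (0.01) and Csf1r (0.0067), and with averaged probe sets for Csf2 (-0.17). In naive mice they did so for Csf1r with quantile normalization repeated (0.020) and for Csf2rb with array weights (-0.0022). The difference between the responses did so for Csf2 with averaged probe sets (-0.14), Csf1r with quantile normalization repeated (-0.065) and Csf3r with array weights (0.029). With single replicates left out, the sign changed in these ranges. For LPS challenged over naive ficolin KO mice they were -0.048 to 0.31 for Csf2ra and -0.20 to 0.01 for Kit. For ficolin KO over WT mice after LPS challenge they were -0.11 to 0.047 for Csf1, -0.17 to 0.18 for Csf2, -0.13 to 0.15 for Csf3, -0.19 to 0.20 for Csf1r, -0.20 to 0.16 for Csf2ra, -0.028 to 0.14 for Csf3r, -0.29 to 0.23 for Kitl and -0.17 to 0.067 for Kit. In naive mice they were -0.13 to 0.062 for Csf1r, -0.062 to 0.10 for Csf2rb, -0.15 to 0.28 for Csf3r and -0.29 to 0.058 for Kitl. For the difference between the responses they were -0.17 to 0.22 for Csf1r, -0.24 to 0.19 for Csf3r and -0.15 to 0.37 for Kitl. The cause of these sign changes was not tested.

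Array signal limits Csf2 and naive Csf3, which lay near or below the array median.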
